A study of Mus musculus with 12 samples.

Results

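Expression of 35 genes for the complement and coagulation proteins that hepatocytes secrete into plasma was described in the livers of wild-type mice and mice lacking Sirt4, which encodes a mitochondrial sirtuin. The genes were taken by symbol, 19 of coagulation and 16 of complement, and all 35 were among the 18010 genes measured. They were chosen for what they encode and not for their values. RNA from 12 male mice of strain 129SV, aged 7 to 8 months and fasted for 16 h overnight, had been hybridised to Affymetrix arrays, with 1 array for each animal. The 6 wild-type mice (SIRT4 WT) and the 6 knockout mice (SIRT4 KO) were littermates, and no animal received a treatment. The labels and the design text do not say how the Sirt4 allele was made or in which cells it is deleted.

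Coagulation is a chain of serine proteases that circulate as inactive precursors. It ends with thrombin cutting fibrinogen into fibrin, which factor XIII cross-links and plasmin dissolves. Complement is a second protease chain, in which the classical, lectin and alternative routes meet at C3, and C5 to C9 then assemble into a pore in the target membrane. The liver makes most of the plasma pool of these proteins, and several of them, fibrinogen above all, are induced in hepatocytes by interleukin-6 through STAT3 in the acute phase response to inflammation or injury.

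Promoter sequence is shown for the 3 fibrinogen chains, whose values followed the same animals, and for C8b and Hc, which with C6 had the lowest log2 fold changes among the complement genes. Each sequence is the 250 bases before the annotated transcript start, 5′ to 3′ on the gene's own strand, from RefSeq's annotation of mouse build GRCm38.p6. Of the 35 genes, 27 matched an entry of that promoter table. Capitals mark matches, on either strand, to 3 motifs spelled out here: CTGGGAA, the core of the type II interleukin-6 response element described in fibrinogen genes, GTTAAT, the first part of the HNF1 site, and TTCNNNGAA, the STAT palindrome. Fga lies at chr3:83025903-83026152 on the plus strand, Fgb at chr3:83049864-83050113 on the minus strand and Fgg at chr3:83007474-83007723 on the plus strand. C8b lies at chr4:104766067-104766316 on the plus strand and Hc at chr2:35061413-35061662 on the minus strand.
Fga: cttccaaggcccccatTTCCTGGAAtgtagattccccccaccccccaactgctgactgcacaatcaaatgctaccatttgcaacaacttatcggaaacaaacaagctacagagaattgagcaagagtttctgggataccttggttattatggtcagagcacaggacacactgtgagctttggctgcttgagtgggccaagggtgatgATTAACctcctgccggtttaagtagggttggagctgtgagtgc
Fgb: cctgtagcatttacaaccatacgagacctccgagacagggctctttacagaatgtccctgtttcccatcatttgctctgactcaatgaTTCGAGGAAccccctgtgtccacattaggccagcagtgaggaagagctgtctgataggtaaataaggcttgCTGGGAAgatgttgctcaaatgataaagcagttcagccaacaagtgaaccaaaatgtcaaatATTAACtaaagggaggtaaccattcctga
Fgg: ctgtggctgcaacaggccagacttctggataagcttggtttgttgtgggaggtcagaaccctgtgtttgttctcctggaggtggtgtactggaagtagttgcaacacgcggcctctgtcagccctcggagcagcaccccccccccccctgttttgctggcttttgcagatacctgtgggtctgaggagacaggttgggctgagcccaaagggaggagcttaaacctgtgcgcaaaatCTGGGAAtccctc
C8b: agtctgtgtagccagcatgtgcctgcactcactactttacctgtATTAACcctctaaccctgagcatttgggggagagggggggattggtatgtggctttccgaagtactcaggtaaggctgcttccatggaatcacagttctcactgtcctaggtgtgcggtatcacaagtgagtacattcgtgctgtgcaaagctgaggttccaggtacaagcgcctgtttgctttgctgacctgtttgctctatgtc
Hc: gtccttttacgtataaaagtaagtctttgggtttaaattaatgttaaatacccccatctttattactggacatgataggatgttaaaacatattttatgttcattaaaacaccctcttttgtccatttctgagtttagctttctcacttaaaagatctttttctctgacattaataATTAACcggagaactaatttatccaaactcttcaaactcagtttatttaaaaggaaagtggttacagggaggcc

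Fgb held all 3 motifs, with CTGGGAA starting 91 bases before the transcript start. Fgg held CTGGGAA 13 bases before its start, and Fga held the STAT palindrome 234 bases and GTTAAT 43 bases before its start. C8b and Hc held GTTAAT alone, 206 and 74 bases before the start, and the C6 window held none of the 3. CTGGGAA occurred in the windows of 4 of the 27 genes (F9, Fgb, Fgg and Masp2) and in 9.1% of all 32851 windows in the table. GTTAAT occurred in 7 of the 27 (C4bp, C8a, C8b, F13b, Fga, Fgb and Hc) and in 6.43% of all windows, and TTCNNNGAA in 6 (C8a, F9, Fga, Fgb, Masp2 and Pros1) and in 7.02%. In F9 and Masp2 the matches to CTGGGAA and TTCNNNGAA overlap. These matches describe letters and were not tested as binding sites. The chromosome also places several of the 35 next to each other, with no protein-coding gene between: Fgg, Fga and Fgb in a row, F11 beside Klkb1, F7 beside F10, C8b beside C8a, and Cfb beside C2.

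Sirt4 itself was lower in the knockout arrays, with an intensity of 172 ± 14.5 (SD, n = 6) in wild type and 104 ± 16.4 (SD, n = 6) in knockout, and the groups did not overlap (log2 fold change -0.53, limma adjusted p = 0.0360). It was the only gene of 18010 to pass an adjusted p of 0.05, and none passed with an offset of 16 in place of 50. Hepatocyte markers were bright in every animal, the dimmest of 10 averaging 4326 against array medians of 36.6 to 38.69. The 35 genes averaged from 420 (Pros1) to 14226 (C3), with 8 above 10000 and 3 below 1000. The arrays' highest values lay between 18465 and 19808, and whether differences are compressed near that level was not tested. The tissue was whole liver, where fewer cells of a type and less RNA per cell cannot be told apart.

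No complement or coagulation gene differed between the genotypes after correction over all genes. None of the 35 passed an adjusted p of 0.05 in limma, and the background was 0.00555% of all genes tested. None had an unadjusted p under 0.05, against 6.29% of all genes, and in none did the 6 knockout animals lie wholly above or below the 6 wild-type animals, against 0.25% of all genes. Adjusted p-values ran from 0.788 to 0.997. The log2 fold changes, knockout minus wild type, ran from -0.26 (C6) to 0.06 (Klkb1), and all 35 of the 95% intervals included 0. No interval reached above 0.175, and the lowest limit was -0.54, for C6. These values are on a log2(intensity + 50) scale, and the p-values measure the spread between animals.

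**Figure D1:**
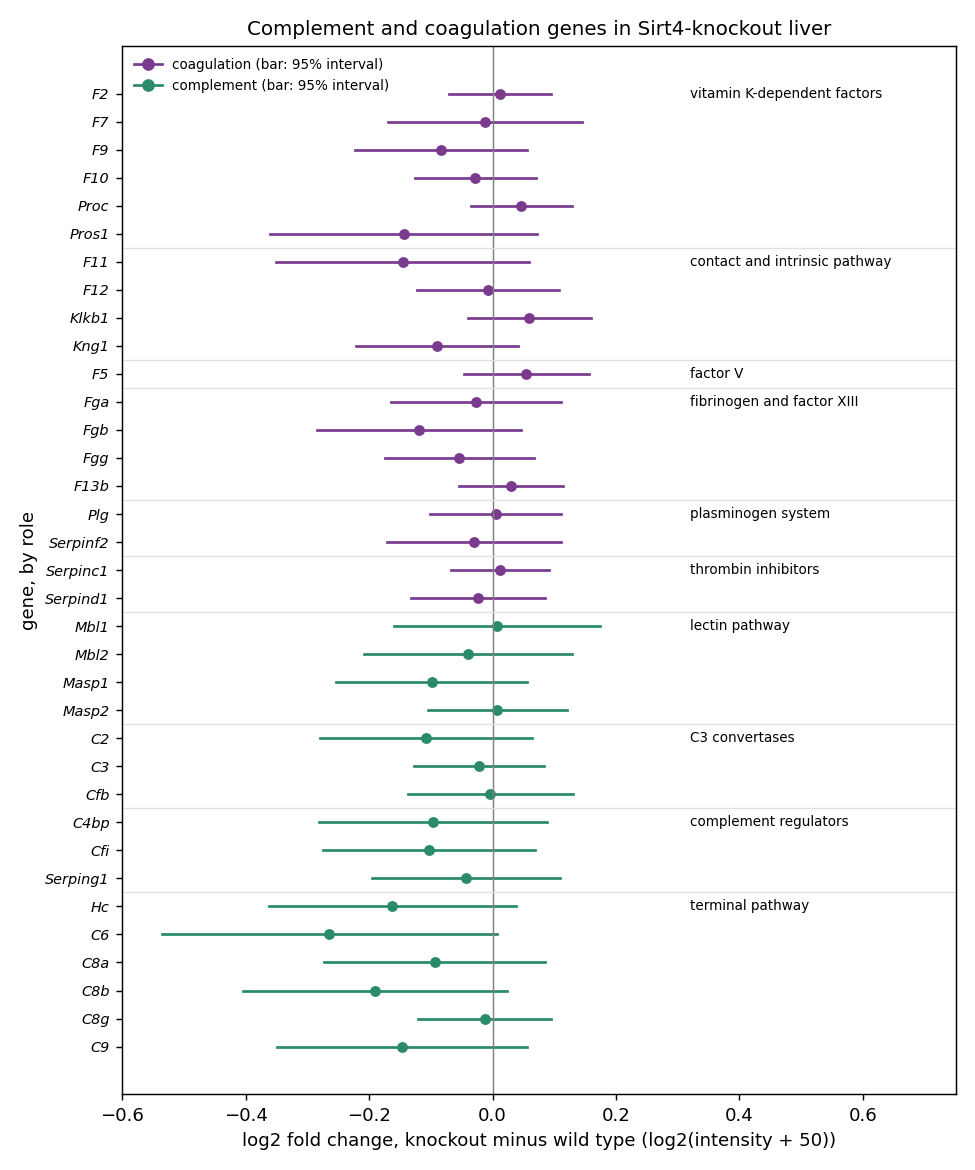
Log2 fold change (x axis, knockout minus wild type on log2(intensity + 50)) of each of the 35 genes (y axis, grouped by role), with bars for the 95% interval from limma and 6 animals in each group. All 35 bars cross 0, and the terminal pathway genes at the bottom reach furthest to the left, C6 at -0.26.

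The point estimates were more often below 0 than above it. Of the 35 genes, 26 lay below 0 (74.3%), against 49.6% of all genes tested and 38.8% of the 1806 genes whose mean intensity was over 1000. Over the complement genes the log2 fold changes had a median of -0.095 and 14 of 16 were below 0, and over the coagulation genes the median was -0.024 and 12 of 19 were below 0. The median over all genes was 0.00059. The tilt depended on the animals kept. Without knockout replicate 4, and likewise without wild type replicate 1, 28 of the 35 lay below 0. Quantile normalization with every animal kept also gave 28. Without some other animals the tilt was smaller or turned. Without wild type replicate 6, 20 of the 35 lay below 0 and the coagulation median was 0.0063. Without wild type replicates 5 and 6, 13 of the 35 lay below 0, beside 46.6% of all genes. The medians were then 0.018 for coagulation and 0.00451 for complement. Leaving a high animal out of the wild-type group alone had to raise the estimates of the genes in which it was high. Leaving a high knockout animal out alone had to lower them, so these counts do not test the tilt. Wild type replicates 5 and 6 were among the 3 highest animals for 21 and 25 of the 35 genes, and knockout replicate 4 for 21. Leaving out all 3, an alternative chosen after seeing the data, gave 20 of 35 below 0. The medians were then 0.025 for coagulation and -0.019 for complement.

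Among the vitamin K-dependent factors, whose activity needs carboxylated glutamates, 4 of 6 estimates lay below 0, with a median of -0.020. Prothrombin, F2, was 11334 ± 279 in wild type and 11428 ± 187 in knockout (SD, n = 6 each), and the lowest and highest of the 12 animals differed by a factor of 1.07. F7, which starts clotting with tissue factor, F9, which acts with factor VIII, and F10, the protease that activates prothrombin, had log2 fold changes of -0.01, -0.08 and -0.03. Pros1 encodes protein S, the cofactor of activated protein C, and had the lowest estimate of the 6. Its wild-type intensities had a lowest value of 347, a median of 436 and a highest of 552, and its knockout values ran from 348 through a median of 387 to 471. All 6 knockout animals lay within the wild-type range, and the highest animals were wild type replicates 6 and 5 (log2 fold change -0.14, limma adjusted p = 0.862, exact two-sided permutation p = 0.253). Without those wild-type animals, whose removal had to raise it, the Pros1 estimate was -0.0024. Knockout replicate 4 was the next highest animal, and with it left out as well the Pros1 estimate was -0.05.

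Proc encodes protein C, the precursor of the protease that inactivates factors V and VIII. It is singled out here after its values were seen. All 6 knockout animals, between 4247 and 4502, lay above the wild-type median of 4219, and the wild-type animals lay between 4159 and 4303. The ranges overlapped at knockout replicate 6, the lowest knockout animal. The difference was small, 0.05 on the log2 scale. Its exact two-sided permutation p was 0.0108, the only one of the 35 under 0.05, against 6.19% of all genes, and limma gave an unadjusted p of 0.241 and an adjusted p of 0.882. The tests differ in what they take as the spread: within groups Proc had an SD of 0.024 on the log2 scale, against a median of 0.112 over all genes, and limma moves a gene's variance towards that of all genes. The authors' deposited table gives Proc a fold change of 1.03 with p-values of 0.0692 and 0.00868 in its 2 columns. A second, dim probe set for Proc, with a mean intensity of 32.9, had a log2 fold change of -0.01.

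The contact and intrinsic pathway genes encode the proteins that set off clotting on negatively charged surfaces and release bradykinin. Their estimates lay below 0 in 3 of 4. F12, factor XII, had an estimate of -0.01, and Klkb1, plasma prekallikrein, had the highest estimate of the 35, 0.06 (limma adjusted p = 0.877). Kng1, the kininogen from which bradykinin is cut, was at 9480, 10192 and 11864 in wild type (lowest, median, highest) and at 9238, 9760 and 10422 in knockout. The knockout values lay within or just below the wild-type range, whose upper part was wild type replicates 5 and 6 (log2 fold change -0.09, limma adjusted p = 0.854, exact two-sided permutation p = 0.175). A second probe set for Kng1, with a mean intensity of 5501, had an estimate of 0.02.

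F11 encodes factor XI, which amplifies clotting by activating factor IX. Its wild-type intensities were 569, 661 and 790 (lowest, median, highest), and its knockout intensities were 456, 601 and 690. The groups overlapped, with knockout replicate 6 the lowest of the 12 animals (log2 fold change -0.15, limma adjusted p = 0.854, exact two-sided permutation p = 0.219). The sample titles carry numbers in a 7200 and a 7500 series, whose meaning the labels do not give, and the genotypes were spread unevenly over them, with 2 wild-type and 5 knockout animals in the first and 4 and 1 in the second. Within the 7200 series the wild-type animals had F11 at 711 and 790, above all 5 knockout animals, which lay between 545 and 690. Within the 7500 series the wild-type animals lay between 569 and 708, above the only knockout animal at 456. With the series in the model the F11 estimate was -0.31, the lowest p among the 35 (limma unadjusted p = 0.00184, adjusted p = 0.839), and without knockout replicate 6 and without that term it was -0.08. In the series-adjusted test 5.86% of all genes had an unadjusted p under 0.05, and F11 and C8b were the members of the 35 that did.

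The same split was applied to all 35. With the series in the model 27 lay below 0, and the medians were -0.013 for coagulation and -0.078 for complement. Within the 7200 series alone 18 lay below 0, the coagulation median was 0.020 and the complement median -0.024. There the genotypes did not overlap for F11, with the knockout lower, and for Proc, with the knockout higher, and 8.20% of all genes did not overlap in that comparison of 2 animals with 5. The 7500 series holds 1 knockout animal and gave no separate test.

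Fibrinogen is a hexamer made of pairs of 3 chains, encoded by Fga, Fgb and Fgg, whose promoters are printed above. All 3 estimates lay below 0, with a median of -0.054, and none passed a test. Fga intensities were 11928, 13118 and 14426 in wild type (lowest, median, highest) and 11995, 12694 and 14935 in knockout. The highest Fga value of all belonged to a knockout animal, replicate 4, so the groups overlapped throughout (log2 fold change -0.03, limma adjusted p = 0.972, exact two-sided permutation p = 0.699). Fgb intensities were 12568, 14054 and 17047 in wild type and 12269, 13082 and 15714 in knockout. Knockout replicate 4 lay above 4 of the 6 wild-type animals and the other knockout animals lay below the wild-type median (log2 fold change -0.12, limma adjusted p = 0.853, exact two-sided permutation p = 0.188). Fgg intensities were 12351, 13002 and 14656 in wild type and 12328, 12553 and 14169 in knockout. Here too 5 of 6 knockout animals lay below the wild-type median, with replicate 4 far above them (log2 fold change -0.05, limma adjusted p = 0.917, exact two-sided permutation p = 0.277). Wild type replicates 5 and 6 and knockout replicate 4 were the 3 highest animals for all 3 chains. Without them the estimates were -0.0050 for Fga, -0.07 for Fgb and -0.02 for Fgg.

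**Figure D2:**
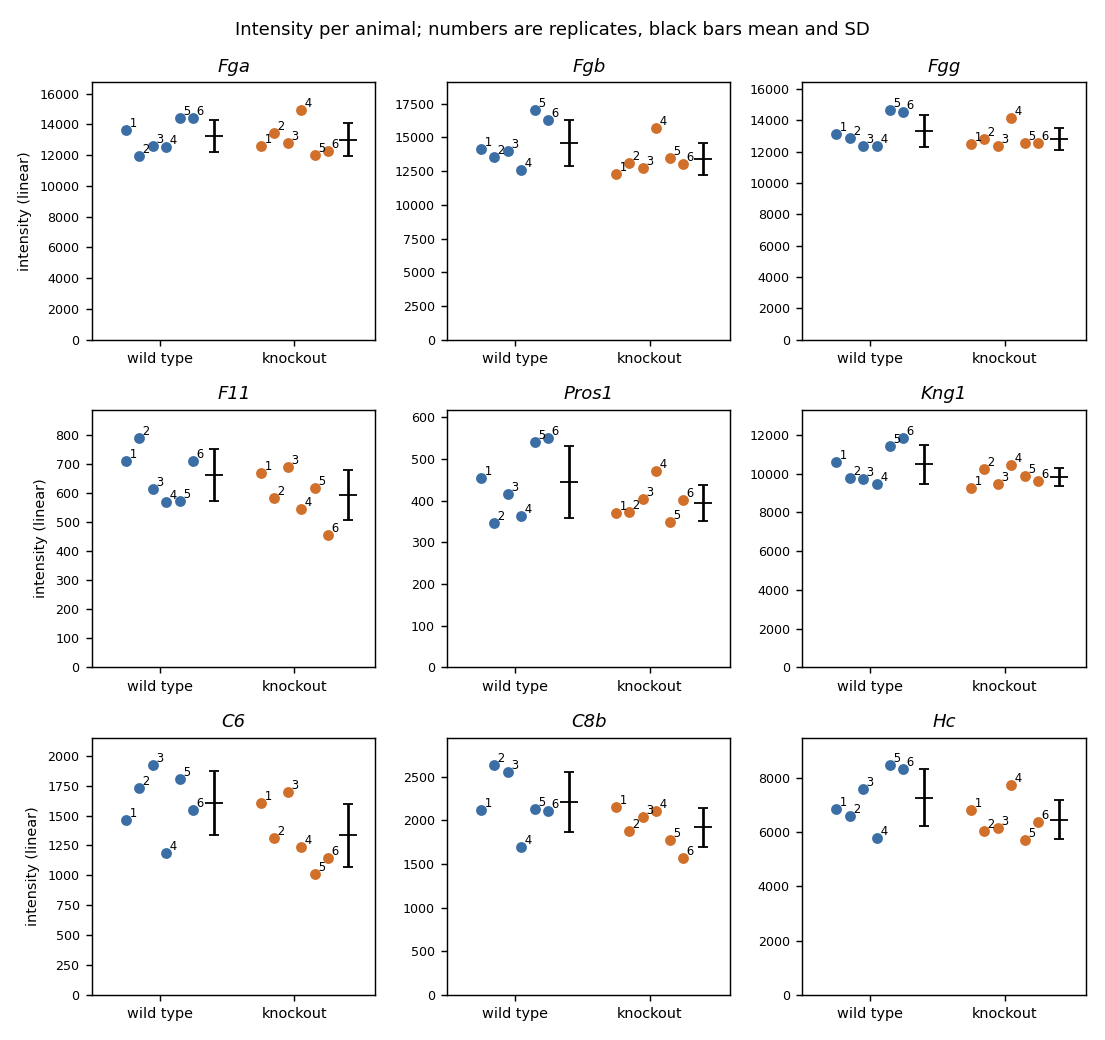
Array intensity on a linear scale (y axis) in each of the 12 animals (numbered points, wild type blue and knockout orange; black bars, mean and SD of 6 animals) for 3 fibrinogen chains, 3 other coagulation genes and 3 terminal complement genes. Wild type replicates 5 and 6 and knockout replicate 4 stand above the others for Fga, Fgb and Fgg, and the groups overlap in all 9 panels.

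Estimates for the remaining clotting genes lay on either side of 0. F13b, the carrier subunit of factor XIII, was 3958 ± 81.4 in wild type and 4043 ± 106 in knockout (SD, n = 6 each), and F5, the cofactor with which factor Xa cuts prothrombin, was 4487 ± 253 and 4659 ± 137. Plg, the precursor of plasmin, and Serpinf2, its inhibitor alpha2-antiplasmin, had log2 fold changes of 0.0048 and -0.03. Serpinc1 and Serpind1, which encode the thrombin inhibitors antithrombin and heparin cofactor II, had log2 fold changes of 0.01 and -0.02. Serpinc1 had the narrowest spread of the 35, its highest animal standing 1.04 times above its lowest. None of these 6 genes had an adjusted p below 0.894 in limma.

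On the complement side, the lectin pathway genes had estimates on either side of 0, with 2 of 4 below it. Mbl1 and Mbl2, the mannose-binding lectins that recognise microbial sugars, had log2 fold changes of 0.01 and -0.04. Masp2, the protease that cuts C4 and C2 once a lectin has bound, was at 0.01, and Masp1, the protease that activates it, at -0.10. The 4 other probe sets for Masp1 were dimmer, with means from 16.9 to 531, and their estimates ran from -0.05 to 0.04. The 3 genes of the C3 convertases and their substrate were below 0, C2 at -0.11, C3 at -0.02 and Cfb, factor B of the alternative route, at -0.0036. C3 was 14346 ± 947 in wild type and 14107 ± 321 in knockout (SD, n = 6 each).

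All 3 complement regulators had estimates below 0. C4bp, the alpha chain of C4b-binding protein, which takes apart the classical C3 convertase, was at -0.10. Cfi, the protease factor I, which cuts C3b and C4b, was at -0.10, and Serping1, the C1 inhibitor that also blocks plasma kallikrein and factor XIIa, was at -0.04. For each of the 3 the highest animals were again wild type replicates 5 and 6 and knockout replicate 4. Without wild type replicates 5 and 6 the estimates were 0.03 for C4bp, 0.01 for Cfi and 0.06 for Serping1. Taking high animals from the wild-type group alone had to raise these estimates. With knockout replicate 4 left out as well, Serping1 was at 0.02, and C4bp and Cfi lay below 0. Their adjusted p-values in limma ran from 0.876 to 0.950.

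The terminal pathway, which builds the membrane pore, held the lowest estimates: all 6 genes lay below 0, with a median of -0.155, and none passed a test. C6 joins C5b to begin the complex. Its intensities were 1184, 1638 and 1922 in wild type (lowest, median, highest) and 1015, 1274 and 1698 in knockout. Knockout replicates 5 and 6 lay below every wild-type animal and the other 4 within the wild-type range (log2 fold change -0.26, limma unadjusted p = 0.0555, adjusted p = 0.788, exact two-sided permutation p = 0.110). C6 also had the widest spread of the 35, its highest animal being 1.89 times its lowest. The authors' deposited table gives a fold change of -1.2 with p-values of 0.110 and 0.107.

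C8b encodes the beta chain of C8, which inserts into the membrane after C7. Its intensities were 1691, 2126 and 2635 in wild type and 1571, 1959 and 2153 in knockout. Wild type replicates 2 and 3 stood above all other animals, and 1 knockout animal, replicate 6, lay below every wild-type animal (log2 fold change -0.19, limma adjusted p = 0.807, exact two-sided permutation p = 0.143). With the title series in the model the C8b estimate was -0.31 (limma unadjusted p = 0.0111, adjusted p = 0.839), and within the 7200 series it was -0.25 (limma unadjusted p = 0.0374, adjusted p = 0.9998). In that series the genotypes overlapped, the wild-type animals being at 2126 and 2635 and the highest knockout animal at 2153. The matching C6 estimates were -0.31 (limma unadjusted p = 0.0591) and -0.23 (limma unadjusted p = 0.205).

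Hc encodes C5, from which the pore complex and the attractant C5a are made. Its intensities were 5784, 7212.7 and 8467 in wild type and 5710, 6250 and 7720 in knockout. The 3 highest animals were wild type replicates 5 and 6 and knockout replicate 4, and the groups overlapped (log2 fold change -0.16, limma adjusted p = 0.829, exact two-sided permutation p = 0.156). Without wild type replicates 5 and 6 the Hc estimate was -0.05, whereas those of C6 and C8b were -0.23 and -0.21. With knockout replicate 4 left out as well, the estimates were -0.105 for Hc, -0.21 for C6 and -0.24 for C8b. Neither C6 nor C8b had wild type replicate 5 or 6 as its highest animal, though wild type replicate 5 was the second highest for C6. Leaving out wild type replicates 5 and 6 alone had to raise the Hc estimate. That setting therefore does not test whether Hc differs from C6 and C8b. C9, which polymerises to form the pore wall, C8a, the alpha chain of C8, and C8g, its gamma chain, had log2 fold changes of -0.15, -0.09 and -0.01. Wild type replicate 4 was the lowest wild-type animal for C2, Hc, C6, C8b and C9, so leaving it out had to lower their estimates. Its removal brought these 5 complement genes to an unadjusted p under 0.05 in limma, beside 7.23% of all genes in that setting. The lowest adjusted p in limma was then 0.537.

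**Figure D3:**
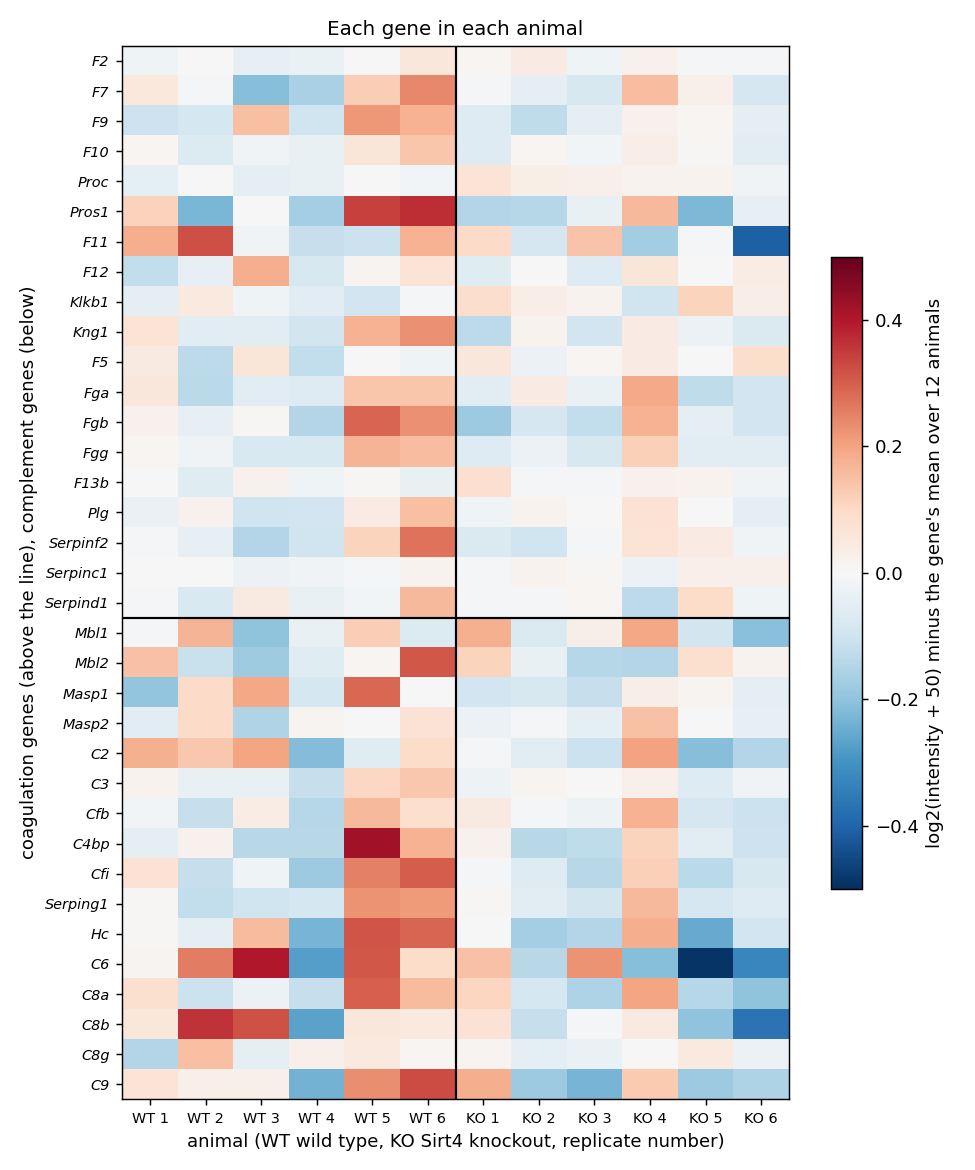
Each of the 35 genes (rows, coagulation above the line and complement below) in each of the 12 animals (columns, wild type then knockout), as log2(intensity + 50) minus the gene's mean over the 12 animals (colour, red higher and blue lower). Columns WT 5, WT 6 and KO 4 are red in most rows, and WT 4 is blue or pale. The highest animal was WT 2 for F11 and C8b and WT 3 for C6, with WT 5 next for C6.

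Differences between animals ran across most of the 35 genes at once. Wild type replicate 6 was among the 3 highest animals for 25 of the 35 genes, wild type replicate 5 for 21 and knockout replicate 4 for 21. No other animal was among the 3 highest for more than 9 genes, and wild type replicate 4 was so for none. The within-group SD on the log2 scale had a median of 0.086 over the coagulation genes and 0.151 over the complement genes, beside 0.112 over all genes and 0.0887 over the 1806 genes with a mean intensity over 1000. The prothrombin, protein C and antithrombin genes were steady across animals, with SDs of 0.03, 0.02 and 0.02, and Pros1, C8b and C6 varied most, with SDs of 0.20, 0.20 and 0.26.

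The same animals were highest for the acute phase proteins, a list of 21 genes such as serum amyloid A and orosomucoid that holds none of the 35. Its mean, centred over the 12 animals on the log2 scale, was 1.11 in wild type replicate 5, 0.88 in wild type replicate 6 and 0.74 in knockout replicate 4, and lay between -0.57 and -0.09 in the other 9. The complement mean was 0.17, 0.14 and 0.08 in these 3 animals and between -0.13 and 0.05 in the others, and the coagulation mean was 0.08, 0.13 and 0.04 against -0.08 to 0.01. Summed acute phase intensity was 166540, 153727 and 141226 in the 3 and 87042 to 101830 in the others. Of the 21 acute phase genes 18 had estimates below 0 in the knockout, none of them passing an adjusted or an unadjusted threshold of 0.05. Because the 12 animals fall into separate clusters on this measure, no correlation is given, and the part of an acute phase response in the complement and coagulation values was not tested.

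**Figure D4:**
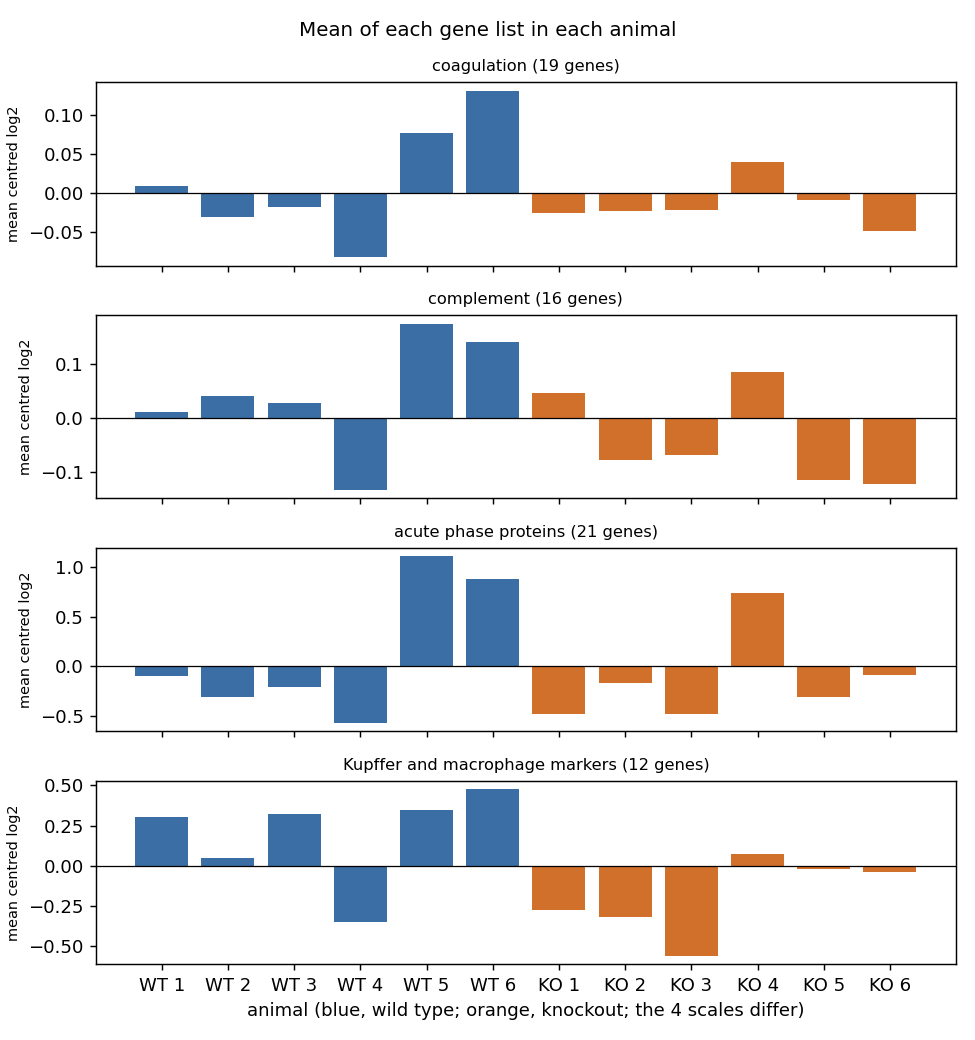
Mean of log2(intensity + 50), centred for each gene over the 12 animals (y axis, scales differ between panels), in each animal (x axis, wild type blue and knockout orange) for coagulation, complement, acute phase and macrophage genes. Wild type replicates 5 and 6 and knockout replicate 4 are the highest in the first 3 panels, with acute phase means of 1.11, 0.88 and 0.74.

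Markers of other liver cells were set beside these values. All 12 Kupffer cell and macrophage markers had estimates below 0, with a median of -0.323, and 11 had an unadjusted p under 0.05 while none passed the adjusted one. Their summed intensity ran from 4044 to 7680 in wild type and from 3408 to 5948 in knockout. All 6 B cell markers were below 0, with 3 at an unadjusted p under 0.05 and sums of 378 to 600 in wild type and 272 to 338 in knockout. For 9 neutrophil markers the median was -0.127 and 1 had such a p, and their sums ran from 349 to 1108 in wild type and from 341 to 477 in knockout, with wild type replicates 6 and 5 the highest. None of these markers was at 0 in every animal. However, 3 of the neutrophil and 2 of the B cell markers averaged below 36.6, the lowest array median. The 10 hepatocyte markers had a median of 0.012, none with an unadjusted p under 0.05, and sums of 123287 to 134974 in wild type and 127442 to 132264 in knockout. Medians for sinusoidal endothelial, stellate, platelet, T and NK cell, bile duct and erythroid markers lay between -0.025 and 0.072, with at most 1 gene of a list at an unadjusted p under 0.05. Many of these markers were also dim. Means below 36.6 were found for 4 of 6 platelet, 4 of 5 T and NK cell and 3 of 6 bile duct markers. The same held for 2 of 6 erythroid and 1 of 8 stellate markers. Medians near 0 in such lists do not show that those cells were unchanged. The part of these cells in the complement and coagulation values was not tested.

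The other genes of both pathways showed the same lack of calls. Of 18 further complement genes measured, none passed the adjusted threshold in limma, and their median log2 fold change was -0.024. Of 20 further coagulation genes, 1 was lower and 1 higher at an unadjusted p under 0.05. Cpb2, which encodes a carboxypeptidase that slows fibrin breakdown, was at 3707 ± 643 in wild type and 3077 ± 299 in knockout (SD, n = 6 each, log2 fold change -0.25, limma adjusted p = 0.748), and Hgfac, a factor XII-like protease, at 2441 ± 232 and 2717 ± 198 (log2 fold change 0.15, limma adjusted p = 0.780). None of 6 genes of the vitamin K cycle and protein secretion and none of 9 genes of the interleukin-6 and STAT3 response had an unadjusted p under 0.05, and their medians were -0.045 and -0.028. Among 11 liver transcription factors the median was 0.063, and 1 had such a p: Ppara, the receptor that drives fat oxidation in fasting, at 998 ± 130 and 1199 ± 94.5 (log2 fold change 0.26, limma adjusted p = 0.748).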

How the data were processed

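Liver RNA of 12 mice was measured on 1 array each. The authors deposited array intensities on a linear scale, and the submitters' processing notes name RMA, without a version. The authors' deposited table adds a signed fold change and 2 columns of unadjusted p-values for each probe set, and its columns of symbols do not stand on the rows they belong to. Genes were therefore named through each probe set's own gene number (36239 of 45037 probe sets) or accession (886) with a RefSeq table of mouse genes. A further 1261 probe sets matched several genes and 6651 none. For each of 18010 genes the probe set with the highest mean was used, and log2(intensity + 50) was tested with limma 3.58.1 in R 4.3.3 (lmFit, eBayes without trend, two-sided, Benjamini-Hochberg over all genes, threshold 0.05). The test was checked on simulated data, drawn for each gene separately. These hold no shift shared by many genes of 1 animal, so the check does not cover such shifts. Of the 35 genes, 6 have several probe sets, and for 4 of these (Kng1, Masp1, Masp2 and Proc) the estimates differ in sign.

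Single genes also had an exact two-sided permutation of the 12 animals over 924 arrangements, whose smallest p is 0.00216. These 35 exact p-values are unadjusted. Values were given for each animal for the 3 genes with the smallest p and the 3 with the largest change in each pathway and for the fibrinogen chains. From the other gene lists up to 3 genes with the smallest p could be named, and those with an unadjusted p under 0.05 are, except that some results are not reported here. The members, lists and tests were chosen with earlier results of these data known. Replicate numbers follow record order and pair no animals. Precision is limited by the number of arrays.

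The alternatives changed the offset (16, or a floor of 10), the probe set, the normalization, the moderation of variances, the title series, a filter at a mean of 100, the pathway that holds Serping1, the animals, and the source (the authors' deposited table).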

Additional observations from a re-analysis of the deposited data

Results flagged for a closer look

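In the knockout group, replicate 4 stood apart from the other 5 animals for 2 genes. Its Fgg intensity was 14169, and the gap to the next animal made up 0.746 of the group's whole range. Its Masp2 intensity was 1689, with a gap of 0.762 of the range. Both gaps are above Dixon's 95% critical value for 6 samples. The test was run on 70 groups, 35 genes in each genotype, and chance flags about 1 in 20, so 2 such values are fewer than that rate gives. The same animal had the third-highest mean over the acute phase proteins.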

How the results depend on the processing

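None of the 35 genes passed the adjusted threshold under any alternative that was fitted. For 16 of the 35 the sign of the log2 fold change held under every alternative, and for 19 it turned at least once. In all, 76 of 875 recomputed values had the other sign, and the cause was not tested. The count with an unadjusted p under 0.05 was 2 after quantile normalization (C6, C8b), 2 with the title series in the model (F11, C8b) and 2 within the 7200 series (F11, C8b), beside 6.06%, 5.86% and 4.28% of all genes, and ran from 0 to 5 when 1 animal was left out, beside 4.997% to 7.48% of all genes. Genotypes did not overlap for 2 genes within the 7200 series, beside 8.20% of all genes, and for 0 to 1 when 1 animal was left out (Proc, without knockout replicate 6, beside 0.394% of all genes). The complement median was 0.00451 without wild type replicates 5 and 6. Leaving out 1 animal gave complement medians of -0.126 to -0.0423 and coagulation medians of -0.0408 to 0.00627.

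Estimates with the other sign were as follows. Within the 7200 series they were 0.0548 for F9, 0.0242 for F10, 0.0696 for F12, 0.0414 for Fga, 0.00873 for Serpinf2, 0.0311 for Serpind1, -0.0335 for Mbl1, 0.00106 for Masp1, -0.00537 for Masp2, 0.000922 for C3, 0.0842 for Cfb and 0.0468 for Serping1. Without wild type replicates 5 and 6 they were 0.0761 for F7, 0.0148 for F10, 0.0114 for F12, 0.0355 for Fga, 0.0130 for Fgg, 0.0577 for Serpinf2, 0.00700 for Serpind1, 0.0306 for Mbl2, 0.0325 for C3, 0.0570 for Cfb, 0.0283 for C4bp, 0.0101 for Cfi and 0.0552 for Serping1. Without these and knockout replicate 4, an alternative chosen after seeing the data, they were 0.0443 for F7, 0.00532 for F10, 0.0412 for Serpinf2, 0.0306 for Serpind1, -0.0139 for Mbl1, 0.0559 for Mbl2, -0.000468 for Masp2, 0.0251 for C3, 0.0221 for Cfb and 0.0187 for Serping1. With the title series in the model they were 0.0410 for F12, -0.00528 for Plg, -0.0804 for Mbl1, -0.0134 for Masp2 and 0.00289 for Cfb. Quantile normalization gave -0.0195 for Mbl1 and -0.0163 for Masp2, centring each array on its median gave 0.000422 for F12 and 0.00430 for Cfb, and the mean of all probe sets gave -0.0149 for Masp2.

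Leaving out 1 animal at a time, estimates that changed sign ran from -0.0562 to 0.0348 for F7, -0.0329 to 0.0281 for F12, -0.0143 to 0.0351 for Plg, -0.0625 to 0.0211 for Serpinf2, -0.0439 to 0.00627 for Serpind1, -0.0318 to 0.0507 for Mbl1, -0.0788 to 0.0187 for Mbl2, -0.0214 to 0.0274 for Masp2, -0.0469 to 0.00312 for C3, -0.0385 to 0.0287 for Cfb and -0.0432 to 0.0160 for C8g.

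No paired analysis was possible because the labels give no replicate numbers. They also do not say which of the littermates shared a litter, so litter was not in the model. The title series is unevenly filled, so series and genotype can be separated only in part. Probe sets near the top of the arrays' range and the unstated meaning of the title numbers also limit what these arrays show.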
